A study of Drosophila melanogaster with 2 samples.

Results

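Intergenic binding sites of scratch (scrt) that lay near, but not at, the start of a protein-coding gene were examined in Drosophila melanogaster embryos. Chromatin immunoprecipitation followed by sequencing had been carried out on whole embryos of mixed sex, collected 4 to 24 h after laying, from the transgenic strain scrt-GFP, in which GFP is fused to the C terminus of scrt. The labels give 2 biological replicates, numbered 3 and 4, which make up a single group, so the data hold no comparison between conditions. One label calls both libraries input controls, but their antibody field names scrt and another experiment is listed as the possible control, so they were taken as scrt immunoprecipitations. The deposited files are peak lists on assembly dm6. Peaks were taken from the authors' list of reproducible peaks, named optimal in the files and cut by IDR (irreproducible discovery rate), if the summit lay outside every annotated gene body, more than 1000 bp from every non-coding transcription start site (TSS), and over 500 and up to 5000 bp from the nearest protein-coding TSS. This rule used position only, and 464 of the 6407 optimal peaks met it (7.24%).

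The scrt protein belongs to the Snail family of zinc-finger transcription factors and is made mainly in developing neurons, whose relatives act largely as repressors. Proteins of this family bind the E-box CAGGTG, and for the vertebrate Scratch proteins the preferred site is extended on one side to CAACAGGTG. Intergenic sequence next to a gene is where many fly enhancers and silencers lie, apart from the promoter at which transcription begins. Whole embryos were used, so a peak pools binding over all cells that contain scrt-GFP.

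Sequence around the strongest of these summits is shown first because the words in it return in the results below. Each stretch spans 50 bp on either side of the summit, on the plus strand, 5′ to 3′, from RefSeq's Release 6 assembly, which is the assembly of the peaks. In the first set, the 4 strongest peaks with no CAGGTG within 100 bp of the summit, capitals mark GCAACA and AACAGG and GAGAGA on either strand.

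CG12605 (chr3L:3965241-3965341): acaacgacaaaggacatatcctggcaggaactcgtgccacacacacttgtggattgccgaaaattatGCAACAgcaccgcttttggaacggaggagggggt
Fife (chr3L:2712726-2712826): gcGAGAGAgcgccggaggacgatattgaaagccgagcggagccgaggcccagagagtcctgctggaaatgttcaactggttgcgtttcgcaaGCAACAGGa
IA-2 (chr2L:1049047-1049147): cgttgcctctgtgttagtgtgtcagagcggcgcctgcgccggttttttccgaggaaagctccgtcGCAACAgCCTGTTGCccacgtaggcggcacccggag
btsz (chr3R:14876070-14876170): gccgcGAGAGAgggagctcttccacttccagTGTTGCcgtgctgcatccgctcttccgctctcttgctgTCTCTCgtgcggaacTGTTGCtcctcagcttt

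The CG12605, Fife and IA-2 summits held GCAACA as written, and the btsz summit held its reverse complement, TGTTGC. At Fife the word ran on to GCAACAGG, and the IA-2 stretch held the reverse complement of that longer word beside GCAACA. In the next set, the 6 strongest peaks with CAACAGGTG within 50 bp of the summit, capitals mark that sequence or its reverse complement, CACCTGTTG.

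CG15629 (chr2L:4810410-4810510): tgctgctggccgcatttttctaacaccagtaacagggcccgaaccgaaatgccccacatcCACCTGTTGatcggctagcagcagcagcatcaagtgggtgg
unc80 (chr3R:27661573-27661673): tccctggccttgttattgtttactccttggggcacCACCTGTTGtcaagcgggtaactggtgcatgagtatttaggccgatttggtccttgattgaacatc
CG31191 (chr3R:20946950-20947050): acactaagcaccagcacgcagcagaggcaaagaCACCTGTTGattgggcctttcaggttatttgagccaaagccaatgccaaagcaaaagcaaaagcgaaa
AstC (chr2L:11082174-11082274): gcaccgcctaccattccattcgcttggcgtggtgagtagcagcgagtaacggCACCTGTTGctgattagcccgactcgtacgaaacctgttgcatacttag
dpr2 (chr2L:10964732-10964832): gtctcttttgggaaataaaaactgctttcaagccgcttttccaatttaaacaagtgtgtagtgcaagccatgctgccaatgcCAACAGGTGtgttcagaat
Oamb (chr3R:20718742-20718842): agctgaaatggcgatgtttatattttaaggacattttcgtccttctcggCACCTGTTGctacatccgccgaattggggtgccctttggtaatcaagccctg

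The motif was on the minus strand at CG15629, unc80, CG31191, AstC and Oamb and on the plus strand at dpr2.

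The sequence within the bounds of the rule made up 12.2 Mb, or 9.09% of the 6 chromosome arms searched, and the 464 peaks were 7.24% of the list. The density was 38.1 peaks per Mb of this sequence, against 47.9 optimal peaks per Mb over the arms as a whole. The share of peaks that met the rule was 6.60% (Wilson 95% interval 4.74 to 9.12) among ranks 1 to 500 of the optimal list and 7.88% (6.53 to 9.49) among ranks 5127 to 6407, with overlapping intervals. In the pooled list beyond the optimal peaks it was 9.07% at ranks 6408 to 10000, 10.9% at ranks 10001 to 20000 and 12.4% at ranks 20001 to 30000. All intervals given here cover counting error over peaks only, since the read depth behind the lists is unknown.

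Most of these peaks lay upstream of the nearest coding gene. Upstream summits numbered 350 (75.4%, 95% interval 71.3 to 79.1) and downstream summits 114. Much more upstream sequence was available, and per Mb of sequence on each side there were 41.5 upstream peaks (exact Poisson interval 37.3 to 46.1) and 30.6 downstream peaks (25.2 to 36.7). The distance to the TSS had a median of 1790.5 bp. Density was highest just past the promoter, at 58.2 peaks per Mb from 500 to 1000 bp (47.9 to 70.1), 44.8 from 1000 to 2000 bp, 35.8 from 2000 to 3000 bp, 24.4 from 3000 to 4000 bp and 27.5 from 4000 to 5000 bp (20.7 to 35.8). The decline was on the upstream side, where the nearest bin held 64.1 peaks per Mb (52.6 to 77.3) and the farthest 22.7 (15.0 to 33.0). On the downstream side the 5 bins ran between 13.5 and 34.5 peaks per Mb, and the nearest of them rested on 3 peaks.

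**Figure D1:**
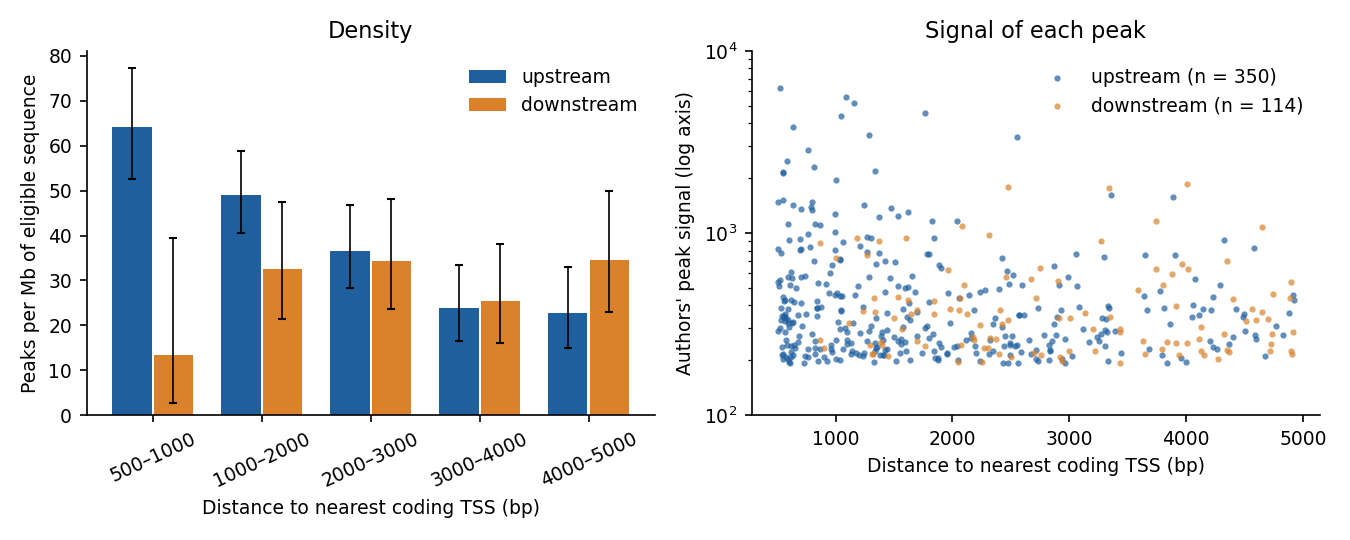
Density and signal of the 464 intergenic peaks by distance to the nearest coding TSS. Left, peaks per Mb of eligible sequence (bars) with exact Poisson 95% intervals, upstream and downstream of the TSS. The upstream bars fall from 64.1 peaks per Mb at 500 to 1000 bp to 22.7 at 4000 to 5000 bp. Right, the authors' signal of each peak on a log axis; of the 20 strongest, 17 lie upstream and 13 within 1500 bp of the TSS.

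By the orientation of the flanking genes, 149 peaks lay between genes that point away from each other, 246 between genes on the same strand and 69 between genes that point towards each other. This was 44.5, 38.2 and 29.4 peaks per Mb of such sequence. Of these peaks, 149, 194 and 7 in that order were upstream of the nearest coding TSS. Orientation and side therefore overlap, and their parts were not told apart. The members of the set spread over 390 intergenic intervals, of which 60 held at least 2, and 36 of the peaks overlapped another optimal peak, so the number of peaks exceeds the number of separate sites.

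The median signal was close to that of the whole list. The signal, the authors' own enrichment value, had a median of 331 (quartiles 240 and 519) against 333 over all 6407 peaks, 286 at intergenic peaks beyond 5000 bp from a coding TSS, 362 at coding promoters and 318 in first introns. Promoters here are summits within 500 bp of a coding TSS with no head-to-head coding TSS within 1000 bp, and first introns exclude exons and anything within 500 bp of a TSS. Of the intergenic peaks, 33 (7.11%) were among the 500 strongest peaks of the list, against 7.80% of all optimal peaks. The difference from all other optimal peaks was -0.75 percentage points (Newcombe 95% interval -2.87 to 2.04), which includes 0. Of the promoter peaks 10.8% were among the 500, a difference of -3.71 points (-6.20 to -0.69). Against first introns the difference was 1.63 points (-0.73 to 4.53), which also includes 0. Against intergenic peaks farther out it was 2.73 points (-0.57 to 5.91), an interval that includes 0.

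The strong members ranked high in both replicates. A replicate's leading peaks are its 6407 best by signal, as many as the optimal list holds. Of the 464 peaks, 351 (75.6%, 71.5 to 79.3) overlapped a leading peak of both replicates, against 77.7% of all optimal peaks. A further 45 overlapped one of replicate 3 alone, 60 one of replicate 4 alone and 8 neither. Against the full replicate lists, 30000 peaks long, 461 of the 464 overlapped a peak in each, and the 3 others had none in replicate 3. The share with both leading was 100% for the 33 strongest members and 24.8% for those at optimal ranks 5127 to 6407, where all peaks of that range had 29.4%. The best overlapping peak ranked higher in replicate 3 for 251 members and in replicate 4 for 210, with a median ratio of the ranks of 1.43. Because the optimal list was derived from these replicates, this is a description of the list and not an independent check of it.

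**Figure D2:**
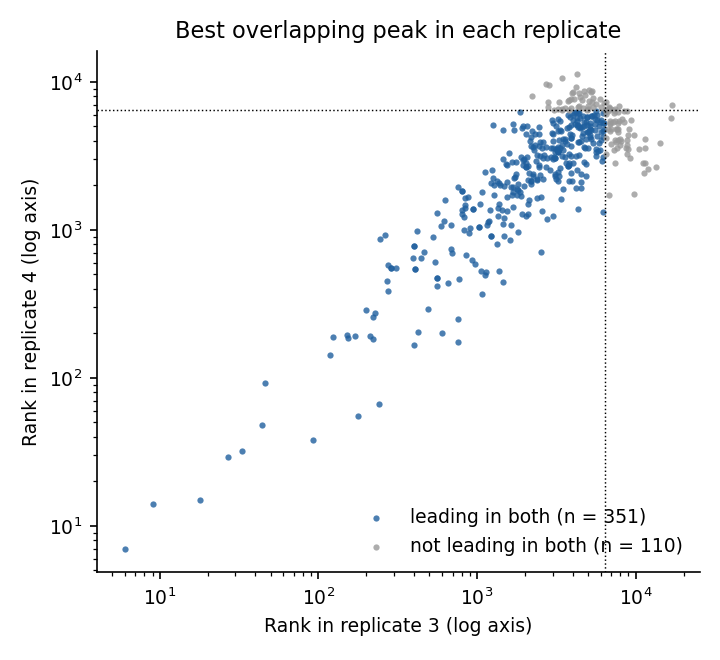
Rank of the best overlapping peak in replicate 3 and in replicate 4, on log axes, for the 461 intergenic peaks found in both full lists. Dotted lines stand at rank 6407; the 351 peaks leading in both replicates lie below and to the left of them, and the 110 others lie beyond at least one line.

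The strongest of the set lay upstream of CG12605, a Snail-family zinc-finger gene that neighbours scrt. This peak (3L, 3964495 to 3965659) had a signal of 6216, ranked 7 of 6407 in the optimal list, 6 in replicate 3 and 7 in replicate 4, and its summit was 520 bp from the TSS. It is followed by peaks 1086 bp from the TSS of Fife, a gene for a protein of the presynaptic active zone, and 1154 bp from that of Ca-alpha1T, whose product is a calcium channel of the T type. The Fife peak had a signal of 5562 and ranked 9 in replicate 3 and 14 in replicate 4, and the Ca-alpha1T peak had 5183 and ranked 18 and 15. Next came peaks near CG11626 (4534, ranks 27 and 29), IA-2, for a protein of dense-core vesicles (4363, ranks 33 and 32), and btsz, for a synaptotagmin-like protein (3814, ranks 44 and 48).

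The peak named by DNAlig3, a DNA ligase gene (3441), ranked 93 in replicate 3 and 38 in replicate 4, and lay in an interval bounded by Sol1 and Cyp9f2. The CG15629 peak had a signal of 3377. Signals of 2839.9 and 2494 were found near jp, the junctophilin gene, and CG5910. The unc80 peak, near the gene of an auxiliary subunit of a sodium leak channel, had 2299. Dscam3, for an immunoglobulin-domain cell adhesion protein, had 2179, CG42541 had 2154 and Glyp, for glycogen phosphorylase, had 2125. The remaining named peaks had signals from 1580 to 1952, and lay near Epac, Spt3, Btnd, CycB, foxo and Tmtc2. Of these 20 strongest peaks, 17 were upstream, 13 held GCAACA within 100 bp of the summit and 8 held AACAGG. The lowest rank among the 20 was 425 in replicate 3 and 383 in replicate 4. A nearest TSS only names a peak, and does not show which gene it acts on.

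The interval between CG12605 and scrt held 7 of the 464 peaks among 9 optimal peaks in 19124 bp. Counted from the scrt TSS, their summits were at -18605 bp with a signal of 6216, -16922 bp (220), -14115 bp (297), -13399 bp (493), -7256 bp (633), -4918 bp (458) and -3645 bp (756). CG43915, a small gene in the interval, separates them, and its body held a further peak of 202. The promoters at the ends had peaks of 4384 at CG12605 and 4878 at scrt. The strongest peak overlaps the CG12605 promoter peak, and the best overlapping peak of both in replicate 3 was the same one, at rank 6. In replicate 4 their best overlapping peaks differed, at ranks 7 and 22. Weaker overlapping peaks were not looked at, so whether they are separate in replicate 3 was not tested.

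**Figure D3:**
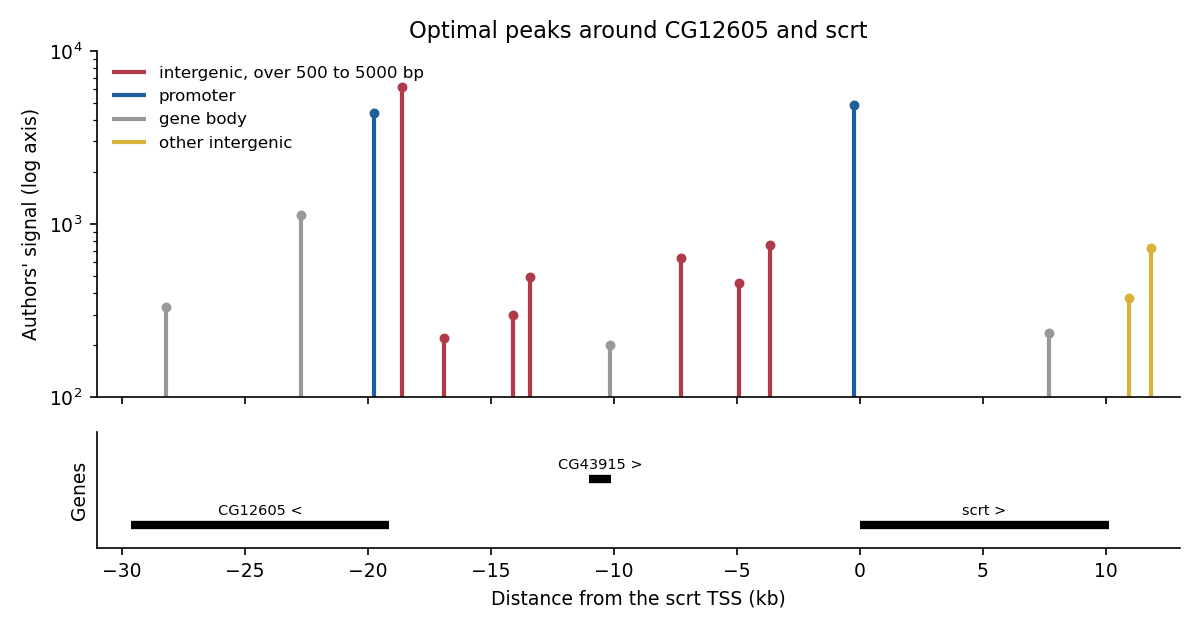
Optimal peaks around CG12605 and scrt, by distance of the summit from the scrt TSS in kb (genes drawn below, with arrowheads for their strand). The height is the authors' signal on a log axis; 7 intergenic peaks lie between the promoter peaks of the 2 genes, with signals from 220 to 6216.

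The 464 peaks named 405 coding genes (2.9% of 13945), of which 356 had 1 peak, 39 had 2 and 10 had at least 3. Among the genes with 3 peaks, chinmo, for a BTB zinc-finger protein known for its role in neuronal temporal identity, had the strongest, with signals of 1170, 522 and 410. Of these, the peaks of 1170 and 410 share their start. Their best overlapping peak was also the same in each replicate, at ranks 398 and 772. Weaker overlapping peaks were not looked at, so whether they are separate sites in a replicate was not tested. For sll, a sulfate-donor transporter gene, the peaks of 766 and 496 share the same span, 17604190 to 17604575 on 3R, with different summits. The other genes with 3 peaks that the naming rule gives were CG43131 (724 at its highest), CG7484 (671) and CG43915 (633).

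The nearest gene had a promoter peak of its own for 150 of the 464 peaks (32.3%), and for 128 of the 405 genes (31.6%, 27.3 to 36.3), against 22% of all coding genes. The 405 genes had to have intergenic sequence in reach, which the 22% does not require, so no link is read from the difference. The share over peaks was 24.9% for intergenic peaks beyond 5000 bp (difference 7.40 points, 1.17 to 13.4) and 58.7% for peaks in first introns (-26.4 points, -31.2 to -21.4). The promoter peak was the stronger one in 78 of the 150 cases and the weaker in 72. It was found for 39.4% of upstream peaks and 10.5% of downstream peaks, and for 46.8% of upstream peaks within 1000 bp. By the rule, a downstream summit lies past the end of its nearest gene, within 5000 bp of that TSS. Upstream peaks have no such limit on gene length, so the difference between the sides is a description. Peaks with a promoter peak at their gene had a median signal of 389, those without 299.

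Lists of neuronal and other genes, drawn up with earlier results of these data known, were counted by the nearest coding TSS, against 2.9% of all coding genes. For a gene to be counted it had to have intergenic sequence in reach, so no preference is read from a share above that value. Snail-family genes had 2 of 6, CG12605 and scrt, with 4 peaks. Ion channel genes had 4 of 38 (10.5%, 4.17 to 24.1), with the Ca-alpha1T peak at 5183, unc80 at 2299, SK at 336 and KCNQ at 203. Axon guidance genes had 4 of 31, Fas2, unc-5, robo2 and Sema5c, none above 392, and the unc-5 peak ranked 13437 in replicate 3 and 2662 in replicate 4. Presynaptic and vesicle genes had 2 of 24, Fife (5562) and Rim (254). Among neuropeptide genes 2 of 46 were named, Lk, for leucokinin (1167), and AstC, for allatostatin C (1120). Among receptors of such peptides 2 of 39 were named, Dh31-R (1357) and rk, the bursicon receptor gene (349.8). The Dpr, DIP, Beat and Side genes of the immunoglobulin superfamily had 2 of 53, dpr20 (572) and dpr2 (567).

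Transcription factor lists included chinmo and lola among 5 of 28 other zinc-finger and BTB genes, zfh2 (759.5) and Lim1 (522) among 4 of 25 neuronal identity factors, and slp2 (915) and D (365) among 2 of 14 temporal patterning factors. Of the proneural bHLH genes, tap (458) was the 1 named of 14. Notch pathway and E(spl) complex genes had 3 of 31, led by E(spl)malpha-BFM (762). Muscle and mesoderm genes had 4 of 27, led by bin (785), and signalling ligand and receptor genes 4 of 49. Sox factors had 2 of 8, D and Sox21a. Each of the lists of nuclear receptors (1 of 24), glial genes (1 of 17) and epithelial and cuticle genes (1 of 24) had a single gene, Hr38, Indy and ed. Chemoreceptors had 2 of 47. No neuroblast and asymmetric division gene (0 of 20), Hox gene (0 of 8) or cytosolic ribosomal protein gene (0 of 81) was nearest to one of these peaks. The Wilson intervals of these shares were 0 to 16.1%, 0 to 32.4% and 0 to 4.53%, in that order. Each includes the 2.9% of all coding genes, so no absence specific to these lists is read from the zeros. By the nearest TSS, 2.9% of all coding genes were named and 48 places on the lists were filled. Counting either flanking gene instead named 629 coding genes (4.51%) and filled 70 places. By that count the neuroblast list had 2 of 20, the ribosomal protein list 2 of 81 and the Hox list 0 of 8, while temporal patterning factors and presynaptic genes had 4 each and the Dpr, DIP, Beat and Side genes 5.

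Short sequence words were compared between the 201 bp centred on each summit and an equal window centred 1000 bp away on the side facing away from the nearest coding TSS, with both strands searched. The exact McNemar test, two-sided, used the pairs in which only one of the windows held the word. Most of the words that stood out overlapped CAACA, and the core E-box was not among them. Among all 6-mers, with reverse complements joined, 8 were more frequent at the summits (0.385%) and 1 less frequent (0.0481%) at an adjusted p under 0.05 (Benjamini-Hochberg). Unadjusted p-values under 0.05 were found for 94 higher and 90 lower 6-mers. GCAACA was present at 178 of 464 summits (38.4%, 34.1 to 42.9) and in 69 paired windows (14.9%), with an odds ratio of 3.48 (exact test, adjusted p = 5.42e-12). CAACAG was present at 139 summits (30.0%) and in 51 paired windows (11.0%), with an odds ratio of 3.67 (adjusted p = 5.46e-10 in the exact test). AACAGG, at 102 summits (21.98%) and in 29 paired windows (6.25%), had the largest odds ratio, 4.65 (exact test, adjusted p = 1.34e-09).

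The other higher words were ACAGTG with an odds ratio of 3.06, then GAGAGA with 2.76, AGCAAC with 2.49, TCAACA with 2.45 and AACAAG with 2.16. The higher words other than ACAGTG and GAGAGA each hold CAACA or part of it, so they overlap in sequence. GCAACA and TCAACA differ in the base before CAACA, and AACAGG and AACAAG in the base after it. A single copy of CAACA therefore cannot hold both words of either pair. How far these words are separate findings was not tested. ACAGTG shares ACAG with CAACAG, and whether it is a separate word was not tested. GAGAGA is part of the repeat that the GAGA factor is known to bind. AATGGC was the only lower word, at 44 summits (9.48%) and in 93 paired windows (20.04%), with an odds ratio of 0.41 (exact test, adjusted p = 0.00235). The paired windows had a higher GC content, with medians of 39.8% at the summits and 42.3% in the paired windows, and 70 of them were centred in gene bodies and 28 overlapped an optimal peak. With the 365 pairs in which no part of the paired window overlapped a gene body or an optimal peak, 8 of the 8 higher words and the lower one were called again, and the part of GC content was not tested. In the single-replicate lists, GAGAGA and AATGGC were not called without replicate 4 (exact test, adjusted p = 0.27 and 0.225), and TCAACA was not called without replicate 3 (0.068). With the paired window on the side facing the TSS, GAGAGA (odds ratio 1.51, adjusted p = 0.578 in the exact test), ACAGTG (2.11, adjusted p = 0.118) and AATGGC (0.64, adjusted p = 0.496) were not called. AATGGC was also not called with paired windows 2000 bp away (0.456), and among the 229 members in the stronger part of the optimal list neither AATGGC (1) nor GAGAGA (0.893) was (adjusted p in the exact test).

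**Figure D4:**
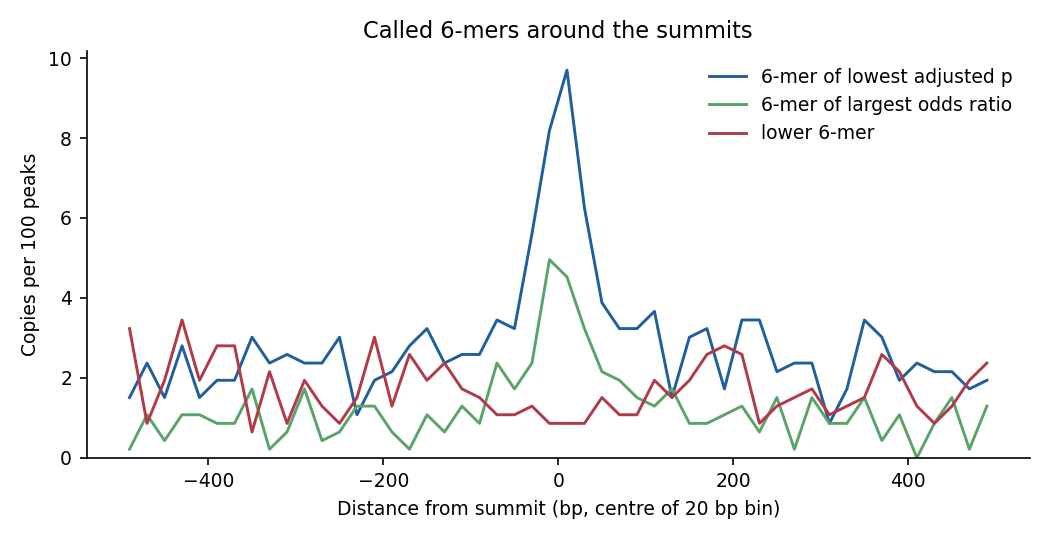
Copies of 3 called 6-mers around the summits of the 464 intergenic peaks, in bins of 20 bp out to 500 bp on each side. GCAACA (the word of lowest adjusted p) reaches 9.70 copies per 100 peaks in the bin just right of the summit and AACAGG (the word of largest odds ratio) 4.96 in the bin just left of it, while AATGGC (lower) has 0.862 in both of those bins.

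GCAACA and AACAGG had been picked for their excess within 100 bp of these summits, so where their copies lay is a description. Of the 664 copies of GCAACA within 500 bp, 161 (24.2%) lay within 50 bp, and of the 291 copies of AACAGG, 83 (28.5%) did. For AATGGC the count was 22 of 397 (5.54%). GCAACA or AACAGG was present at 219 summits (47.2%), against 88 paired windows (19.0%), and 61 summits held both words. GCAACA was present at 45.7% of the 116 strongest peaks (36.9 to 54.7; signals 520.5 to 6216), 43.1% of the next 116, 37.1% of the next and 27.6% (20.3 to 36.3) of the 116 weakest, an order that was not tested. The paired windows of these sets had 14.7%, 12.1%, 19.8% and 12.9%. AACAGG had no such order, with 26.7%, 19.0%, 22.4% and 19.8%.

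Around CAACA itself, counted over 502 copies at summits and 295 in paired windows, the base before it was G in 44.6% of the summit copies and 28.8% of the paired copies. After it, G stood at the first base in 33.3% and 18.3%, G at the second in 36.1% and 18.3%, and T at the third in 43.0% and 26.8%. Longer words chosen after these results were seen, for which no test was made, were CAACAGG at 69 summits and in 9 paired windows, GCAACAGG at 38 and 4, CAACAGGT at 30 and 4, and GCAACAAG at 35 and 7.

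The E-box family showed no call at these peaks. Of the 20 family motifs, comprising the 10 E-boxes and 10 further motifs, 0 passed in the exact McNemar test with adjustment over the family (0%), and 2 had an unadjusted p under 0.05. CAGGTG was found at 32 summits (6.90%, 4.93 to 9.57) and in 35 paired windows (7.54%), an odds ratio of 0.90 with an interval of 0.52 to 1.56. The longer CAACAGGTG was found at 11 summits (2.37%) and in 2 paired windows (0.43%), with an odds ratio of 10 and an interval from 1.42 to 434 (exact test, adjusted p = 0.117, unadjusted 0.0117). In the single-replicate lists it passed, without replicate 4 (exact test, adjusted p = 0.0195) and without replicate 3 (0.039). The holders were the 6 shown above and the peaks near rk, CG17230, CG13045, CG16798 and CG31205, with signals from 256 to 3377. Thus CAACAGGTG accounted for 11 of the 32 summits with CAGGTG. Its test rested on 10 pairs with the motif only at the summit and 1 with it only in the paired window. The missing call therefore does not show a lack of CAACAGGTG. At the other 5943 optimal peaks it was at 1.70% of summits and 0.303% of paired windows (odds ratio 5.61, 3.38 to 9.85). CAGGTG was at 7.74% and 8.40% there (odds ratio 0.91, 0.80 to 1.05). The GAGA-type motif GAGAGAG was found at 28 summits and in 11 paired windows, with an odds ratio of 2.55 (exact test, adjusted p = 0.117). It passed without replicate 3 (0.039) and with 200 bp on each side (0.00415). It did not pass in the other alternatives, such as without replicate 4 (0.158) or in the stronger part of the optimal list (0.692). CAGCTG was found at 37 summits and in 37 paired windows.

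The same comparison at the other 5943 optimal peaks, which has far more pairs and so calls smaller differences, gave 363 higher 6-mers (17.5%) and 609 lower (29.3%), and these included the 8 higher words and the 1 lower word found here. AACAGG was at 21.98% of the intergenic summits and 13.8% of the others, a difference of 8.20 points (Newcombe 95% interval 4.56 to 12.3), and GCAACA at 38.4% and 30.5% (7.82 points, 3.35 to 12.5). Both words were picked for their excess at these summits, so these differences are descriptions. Against intergenic peaks beyond 5000 bp, AACAGG differed by 4.45 points (-1.06 to 9.79) and GCAACA by 4.66 points (-1.94 to 11.1), intervals that include 0.

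Of the 20 family motifs, 7 were set against promoter peaks, and 4 of these were less frequent at the intergenic summits, with an interval below 0. The intervals are not adjusted for the number of motifs, and the rest of the family was not compared in this way. The classes differ by rule in their distance to a coding TSS, so for motifs placed at promoters these shares are descriptions. CAGCTG was at 7.97% of the intergenic summits and 15.9% of those at promoters (difference -7.96 points, -10.7 to -4.73). TATCGATA, the DNA replication-related element, was at 1 intergenic summit (0.216%) and 2.80% of those at promoters (-2.58 points, -3.44 to -1.39). GGTCACAC, known as core promoter motif 1 in flies, was at 1 intergenic summit and 3.54% of promoter summits (-3.32 points, -4.27 to -2.08). GAGAGAG was at 6.03% of intergenic summits and 11.2% at promoters (-5.21 points, -7.57 to -2.32). At intergenic peaks beyond 5000 bp the shares of these motifs were 7.12% for CAGCTG, 0.548% each for TATCGATA and GGTCACAC, and 3.56% for GAGAGAG. The E-box CAAGTG was more frequent, at 17.9% of the summits of the 464 peaks and 13.6% of those at promoters (4.33 points, 0.72 to 8.35). Its share was 20.5% at intergenic peaks beyond 5000 bp. In the paired windows of the 464 peaks it was 14.2% (exact McNemar test, adjusted p = 0.635). Against promoters, the interval included 0 for CAGGTG (-0.49 points, -2.83 to 2.40) and CAACAGGTG (0.73 points, -0.51 to 2.62).

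At the limits of the rule, the peaks just inside the lower one were 504 bp from stv with a signal of 820, 505 bp from E(spl)m2-BFM with 290 and 506 bp from CG3348 with 538. Just outside it were peaks 497 bp from gem with 209.8, 495 bp from CG17544 with 901 and 495 bp from CG43066 with 195. The upper limit had peaks of 429, 458 and 286 inside, 4924, 4918 and 4918 bp from Ir94a, scrt and CG13171, and peaks of 333, 325 and 793 outside, 5002, 5013 and 5016 bp from CG4218, CG43050 and Lrr47.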

How the data were processed

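Embryo chromatin of a single group (replicates 3 and 4) was profiled by ChIP-seq. The listings among the deposited files state that replicates and their pool were each compared with a control to call peaks, and that IDR gave the optimal list. Aligner, caller, IDR threshold and read depth: not given in the sources used here. The deposited signal is the authors' enrichment value, comparable only within a list, so ranks were used across lists. The authors' −log10 q-value was left aside, since 81.3% of the optimal peaks shared its highest value, 4.02. The deposited summit offset (narrowPeak, dm6) gave each position.

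Genes and TSSs were from Ensembl release 115 for the same assembly, without transposable elements, on 6 chromosome arms (2L, 2R, 3L, 3R, 4 and X). Sequence was read from RefSeq Release 6. Words were tested with the exact McNemar test and Benjamini-Hochberg adjustment, over 20 motifs and over all 6-mers, at 0.05; odds ratios are of discordant pairs with exact intervals, and shares have Wilson 95% intervals. Shares with other classes have Newcombe intervals and no p-value. Words and rule were tested on simulated data and by direct rereading. List symbols matched for 647 of 653, 12 by synonym. Named were the 20 strongest members, Snail-list and CG12605–scrt members, the 5 genes with most members, up to 4 members per list, members nearest each limit, and called words. Members, lists and the naming rule were chosen with earlier results of these data known. Alternatives were single-replicate lists, a stricter list, merged summits, other windows, overlaps and limits, and transposable elements counted as genes, the last added after seeing the data. Scripts ran in Python 3.11.15 with scipy 1.17.1 and numpy 2.4.6, tables in pandas 2.3.3, figures in matplotlib 3.10.9.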

Additional observations from a re-analysis of the deposited data

How the results depend on the processing

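The number of members was 441 to 479 without either replicate, 451 with whole peaks outside gene bodies, 352 with summits over 1000 bp from the TSS and 448 with transposable elements counted as genes, the last added after seeing the data. No paired analysis was possible because the 2 replicates form a single group. The share overlapping leading peaks of both replicates was 75.4% to 78.5% without one replicate (overlap with the other replicate's leading peaks only), 98.3% in the stricter list, which keeps the strongest peaks, and 99.4% against the full replicate lists, which admit weak peaks. The share with a promoter peak at the nearest gene was 24.0% in the stricter list, 25.4% with promoters within 250 bp, and 29.9% to 32.9% without one replicate. Counting either flanking gene filled 70 places on the gene lists, against 48 by the nearest TSS. Over all coding genes the shares were 4.51% and 2.9%. The upstream share and the median rank stayed within their intervals in each alternative.

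Of the family motifs, 1 or 2 were called higher without one replicate, 1 with 200 bp on each side and 1 with paired windows 2000 bp away, against 0 otherwise, and 0 were called lower in any. Without replicate 4 and without replicate 3 CAACAGGTG had adjusted p = 0.0195 and 0.0393 in the exact test, over a range of 0.0195 to 0.921 in the alternatives. Higher 6-mers numbered 10 to 14 without one replicate, of which 7 were among the 8 in each case, and lower ones 0 or 1 without one replicate, 0 in the stricter list and 7 with paired windows 2000 bp away. In the exact test GAGAGA was not called in the stricter list (adjusted p = 0.893), without replicate 4 (0.27) or with paired windows towards the TSS (0.578). ACAGTG was lost only in the last (0.118) and TCAACA only without replicate 3 (0.068). AATGGC was lost without replicate 4 (0.225), in the stricter list (1), and with paired windows towards the TSS (0.496) or 2000 bp away (0.456). The causes were not tested. The words GCAACA and CAACAG and AACAGG and AGCAAC and AACAAG passed in all 7 alternatives run for 6-mers. Read depth is unknown, so its part in these values was not tested.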
